A study of Mus musculus with 8 samples.

Results

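The crystallins of isolated mouse photoreceptor cells were examined on 8 single-color Agilent microarrays. The 9 genes were Cryaa, Cryab, Cryba1, Cryba2, Cryba4, Crybb1, Crybb2, Crybb3 and Crygs, chosen by name, of 22907 genes that a probe of the array names. They were found as the 11 probes whose RefSeq accession maps to 1 of these genes. Cryaa and Crybb2 had 2 probes each and the other members 1. The photoreceptor cells came from C57BL/6 mice at postnatal day 8 (P8), 4 arrays labelled Lpcat1 HZ and 4 labelled Lpcat1 KO. Lpcat1 encodes lysophosphatidylcholine acyltransferase 1, which makes saturated phosphatidylcholine. HZ stands for heterozygous, so the control mice carried a deleted copy of Lpcat1 as well, and the KO mice lacked both. The study's results call the KO mice global, that is with the deletion in every cell. Per its methods the line had a C57BL6/N background and was crossed with C57BL6/J, so that no mouse used was homozygous for the rd8 mutation of Crb1. Retinas were dissociated with trypsin before cells carrying CD73, a surface protein of photoreceptors, were collected with magnetic beads. The sources used here do not say whether each array held cells of 1 animal or of a pool, so the p-values measure the spread between these samples, which may be technical in part.

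Crystallins are the bulk proteins of the lens, where they give the fibre cells their transparency and refractive power. The alpha crystallins are small heat shock proteins that hold unfolding proteins in solution, whereas the beta and gamma crystallins belong to a separate family of structural proteins that share a folded domain. Outside the lens, Cryab is made in many tissues, among them muscle, glia and the retinal pigment epithelium (RPE), and crystallin transcripts have often been seen in the retina, in particular after injury or during degeneration.

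Each value is the log2 signal of a probe minus the 75th percentile of its array, so that a step of 1 is a 2-fold change of signal, and values of different probes were not set against each other. The 75th percentile lay between 882 and 1024 intensity units, and 59.5 to 64.6% of the probes of an array were well above background in the marks of the scanning software. Precision was limited by having 4 arrays in a group. The 8 arrays lay on a single slide on which row 1 held KO and row 2 held HZ, and row and genotype cannot be told apart. Same-numbered arrays shared a slide column and deviated together. Group differences, intervals and p-values are from unpaired tests unless the replicate number is named as a block. HZ replicate 4 stood apart, since the software marked 458 of its spots as non-uniform, and 2 to 25 on any other array. The cells carried the rod markers they should: the mean level of 17 rod genes lay between 6.01 and 6.30 on the arrays labelled HZ and between 5.92 and 6.18 on those labelled KO. Nt5e, the gene of CD73, was between 4.27 and 4.39 and between 4.05 and 4.29. Lpcat1 itself did not separate the labels, with -1.17 to -0.81 and -1.16 to -0.85, and since the place of its probe in the deleted gene was not examined, genotypes are given as labelled.

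Crystallin signal was mostly near background in these cells, and no member was called at the thresholds fixed for the test. The study's methods name fold thresholds of 1.2 or 1.5 and q thresholds of 0.05 or 0.5 without tying a pair of them to these arrays, so the pairings used here are choices. Of the 9 members, 3 were well above background on all 8 arrays, namely Cryab, Cryba1 and Cryba2. Another 3, Cryaa, Crybb1 and Crybb3, reached the 4 arrays required for the test, and Cryba4, Crybb2 and Crygs did not and were not tested. When a call required more than a 1.5-fold change with an adjusted p below 0.5, limma called 0 of the 6 tested members lower in KO and 0 higher. Over all 34303 probes tested, the same rule called 0.813% lower and 0.227% higher. When it required more than a 1.2-fold change with an adjusted p below 0.05, limma called 0 members, as it did 0.0% of all probes. By limma and by the methods' t-test alike, 1 member had an unadjusted p under 0.05, as had 3.48% of all probes with a lower and 4.69% with a higher signal in limma. The median difference of the 6 was -0.36, and 5 of them were lower, whereas the median of all probes was 0.002 and 49.5% of them were lower. Leaving out HZ replicate 4 moved the median to -0.17, and leaving out KO replicate 1 to -0.19. Without a filter on dim probes, the median over all 9 members was -0.44.

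**Figure D1:**
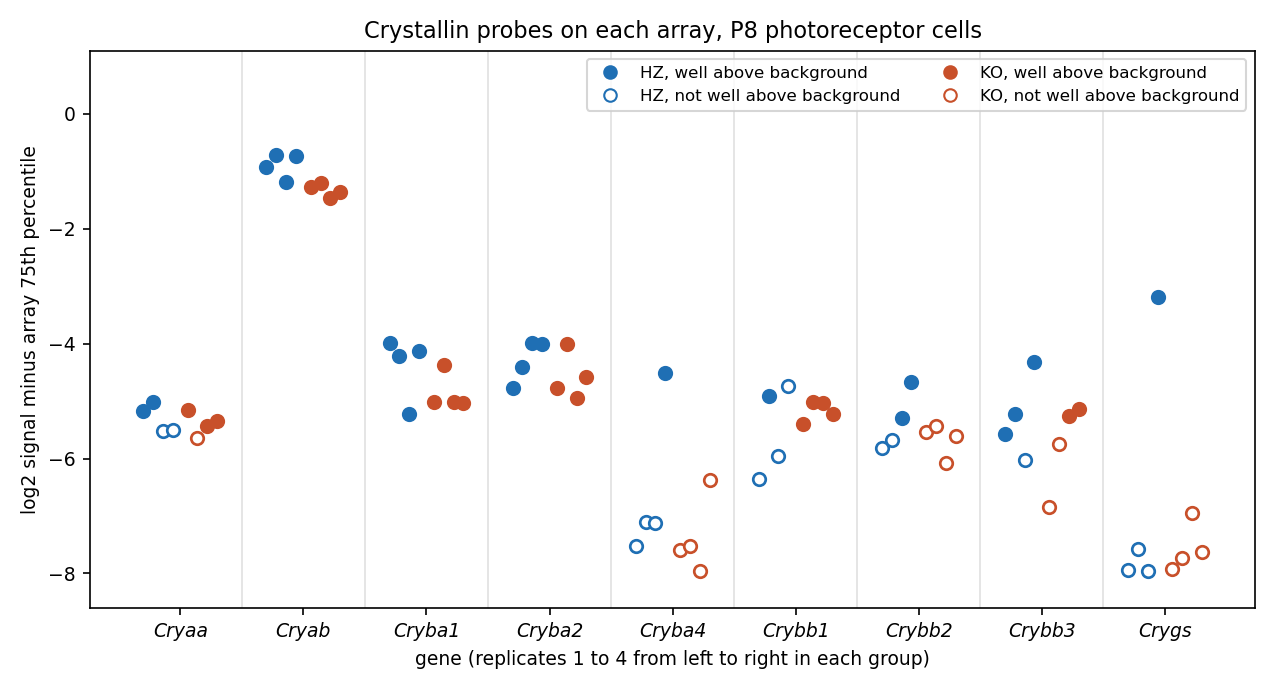
Normalized log2 signal of the 9 crystallins on each of the 8 arrays, 1 point per array, blue for HZ and orange for KO. Filled points were well above background, hollow points were not. The groups are apart for Cryab, and Crygs and Cryba4 have 1 filled point each, that of HZ replicate 4.

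Cryab, the alpha B crystallin, was the member with the clearest difference. Its normalized log2 signal was -0.92, -0.72, -1.18 and -0.73 on HZ replicates 1 to 4. On KO replicates 1 to 4 it was -1.28, -1.21, -1.46 and -1.36. Every array labelled KO lay below every array labelled HZ, the highest KO array at -1.21 coming close to the lowest HZ array at -1.18. In intensity units the signal ran from 404 to 623 and from 332 to 431, and the software's own error was at most 10.1% of the signal on each array. The group means were -0.89 ± 0.22 (SD, n = 4) and -1.33 ± 0.11 (SD, n = 4). The difference of -0.44 (standard error 0.12, 95% interval -0.72 to -0.15) is a 1.35-fold lower signal in KO, with an interval from 1.11 to 1.65-fold. Its unadjusted p in limma was 0.00752 and its adjusted p 0.448 over all probes tested. Complete separation with KO below HZ was seen for 2.14% of all probes. Fewer cells that make Cryab and less Cryab RNA in each cell cannot be told apart in such samples.

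The Cryab difference was smaller than 1.5-fold. With a pairing of those thresholds that was added with the values known, more than 1.2-fold with an adjusted p below 0.5, limma called Cryab lower, 1 of 6 members, where 1.3% of all probes were lower and 1.38% higher. With the replicate number as a block, 2 members were called lower, Cryba1 with an adjusted p of 0.482 (unadjusted 0.11) beside Cryab with 0.324. In that fit 9.2% of all probes were called lower and 5.78% higher. Cryab was lower in 4 of 4 same-numbered pairs, by 0.28 to 0.63 on the log2 scale. Without an array, Cryab kept its direction at -0.54 to -0.38, with unadjusted p of 0.00146 to 0.0203 without an HZ array and 0.0101 to 0.024 without a KO array. The adjusted p then lay between 0.312 and 0.753 and passed 0.5 in all cases but that without HZ replicate 2, that is without HZ replicate 1, 3 or 4 or any one of KO replicates 1 to 4.

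**Figure D2:**
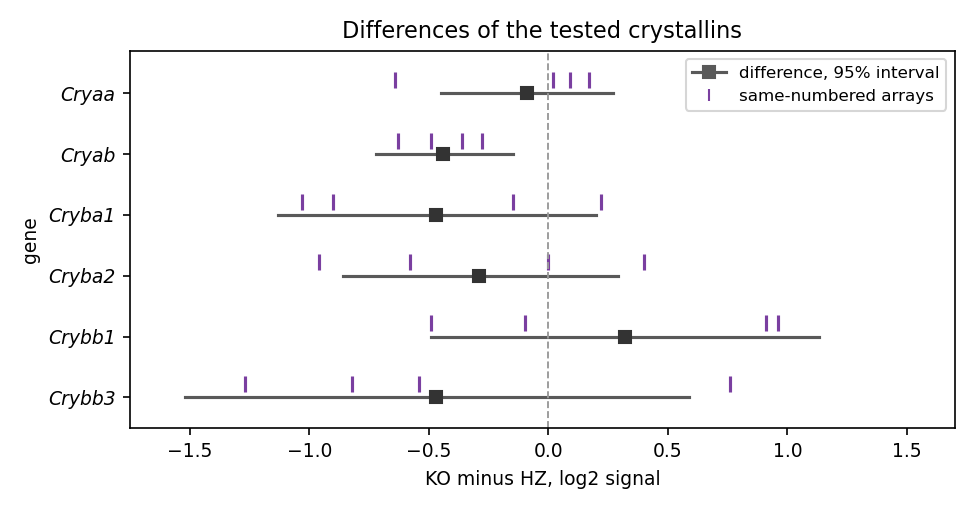
Difference KO minus HZ in log2 signal for the 6 tested crystallins, with squares for the limma estimate, bars for its 95% interval and ticks for the differences of same-numbered arrays. The interval of Cryab, -0.72 to -0.15, lies below 0, and those of the others include 0.

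Cryaa, the alpha A crystallin and partner of Cryab in the lens, was close to background. Its brighter probe gave -5.18, -5.01, -5.52 and -5.51 on HZ replicates 1 to 4, where 2 arrays were well above background. On KO replicates 1 to 4 it gave -5.16, -5.65, -5.43 and -5.35, with 3 arrays well above background. The groups overlapped throughout. The difference was -0.09 (95% interval -0.45 to 0.27, limma adjusted p = 0.875), and it turned to 0.09 with quantile normalization. The second Cryaa probe was not well above background on any array.

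A list of genes named as small heat shock proteins, the family of the alpha crystallins, was examined beside Cryab. All 3 tested members of that list had higher means in KO (median difference 0.28), and limma called 0 at more than 1.5-fold. The median was 0.11 with KO replicate 2 left out, 0.16 with HZ replicate 4 left out and 0.04 with normexp background correction. Hspb6, also named Hsp20, had 2.93, 3.01, 2.99 and 2.66 on HZ replicates 1 to 4 and 3.34, 3.29, 3.23 and 3.31 on KO replicates 1 to 4. Every array labelled KO was above every array labelled HZ, as for 4.19% of all probes. The difference was 0.40 (95% interval 0.17 to 0.62, limma adjusted p = 0.411), and a second Hspb6 probe gave 0.42 (limma adjusted p = 0.411). At the pairing added later, more than 1.2-fold with an adjusted p below 0.5, both Hspb6 probes were called higher. That pairing called 1.38% of all probes higher, and it did not call Hspb1 or Hspb11. Hspb1, the inducible small heat shock protein of many stressed cells, had a difference of 0.28 (95% interval -0.21 to 0.77), and Hspb11, a protein of cilia, one of 0.06 (95% interval -0.25 to 0.37), where its second probe gave -0.08. Hspb2, which the RefSeq annotation places next to Cryab, was not well above background on any array, nor was Hspb8. The 2 remaining members, Hspb3 and Hspb7, were well above background on 1 and 3 arrays.

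The beta crystallins are split into acidic and basic members, which pair with each other in the lens. Among the acidic ones, Cryba1 had -3.99, -4.22, -5.23 and -4.13 on HZ replicates 1 to 4. On KO replicates 1 to 4 it had -5.02, -4.37, -5.02 and -5.03. HZ replicate 3 was the lowest of all 8 arrays and KO replicate 2 stood well above the other arrays labelled KO, so the groups overlapped. The difference was -0.47 (95% interval -1.13 to 0.20, limma adjusted p = 0.695). It was -0.75 without HZ replicate 3 (limma adjusted p = 0.754) and between -0.63 and -0.33 without any other array.

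Cryba2 was -4.77, -4.40, -3.99 and -4.00 on HZ replicates 1 to 4 and -4.77, -4.00, -4.95 and -4.58 on KO replicates 1 to 4. The ranges overlapped almost fully, with the highest KO array beside the highest HZ arrays. The difference was -0.29 (95% interval -0.86 to 0.29, limma adjusted p = 0.762). Neither of these acidic members was thus shown to differ, but their intervals include a fall as large as that of Cryab.

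Cryba4, the remaining acidic member, was seen on a single array. It was -4.51 on HZ replicate 4, with an intensity of 38.7 units, and between -7.52 and -7.10 on the other arrays labelled HZ and between -7.96 and -6.37 on those labelled KO. Only HZ replicate 4 was well above background. The bound that this leaves on a fold between the groups was under 1, so none is given.

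Among the basic members, Crybb1 was the only tested crystallin with a higher mean on the arrays labelled KO. It had -6.35, -4.92, -5.95 and -4.74 on HZ replicates 1 to 4, where 1 array was well above background, and -5.40, -5.02, -5.04 and -5.23 on KO replicates 1 to 4, where all 4 were. The KO arrays alone sufficed for the 4 required for the test, so the higher mean of Crybb1 is no separate support. The arrays labelled HZ spread on both sides of those labelled KO. The difference was 0.32 (95% interval -0.49 to 1.13, limma adjusted p = 0.805) and 0.03 without HZ replicate 1.

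Crybb3 had -5.58, -5.22, -6.02 and -4.32 on HZ replicates 1 to 4 and -6.84, -5.75, -5.26 and -5.14 on KO replicates 1 to 4. HZ replicate 4 was the highest array and KO replicate 1 the lowest, and the ranges overlapped between them. The difference of -0.47 (95% interval -1.52 to 0.59, limma adjusted p = 0.783) shrank to -0.15 when HZ replicate 4 was left out and to -0.10 when KO replicate 1 was.

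Crybb2 was not tested. Its brighter probe gave -5.82, -5.67, -5.30 and -4.66 on HZ replicates 1 to 4, with 2 arrays well above background, and -5.53, -5.44, -6.07 and -5.60 on KO replicates 1 to 4, with 0 well above background. The groups overlapped, with means of -5.36 and -5.66, and KO was lower in 2 of the 4 same-numbered pairs. The dimmer Crybb2 probe was not well above background on any array.

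Crygs, the gamma S crystallin of the lens cortex, gave the most uneven profile of the family. It was -3.19 on HZ replicate 4, an intensity of 96.7 units, and between -7.95 and -7.57 on the other arrays labelled HZ, between 3.72 and 5.40 units. On the arrays labelled KO it was -7.92, -7.74, -6.95 and -7.62, between 3.72 and 7.41 units. Only HZ replicate 4 was well above background, and as for Cryba4 no fold between the groups can be given. The software's error for this spot was 26.7% of the signal, against 10.1% for Cryab on the same array.

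HZ replicate 4 carried many such signals. Among the 15966 probes that were not well above background on any other array, 1750, or 11.0%, were so on HZ replicate 4, against 2.3 to 3.9% for each of the other arrays. Its lone probes exceeded the mean of the other 7 arrays by a median of 2.64 on the log2 scale. For Cryba4 the excess was 2.80, and 39.2% of the lone probes had one as large. For Crygs it was 4.48, and 3.09% of the lone probes, or 54, had one as large. Among the probes of crystallin relatives and lens genes, those of Crygn, Lctl and Pitx3 were also seen on HZ replicate 4 alone. Spots marked by the software as non-uniform or as outliers were dropped, so the Crygs and Cryba4 values on HZ replicate 4 came from unmarked spots. What part the array had in these signals was not tested.

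**Figure D3:**
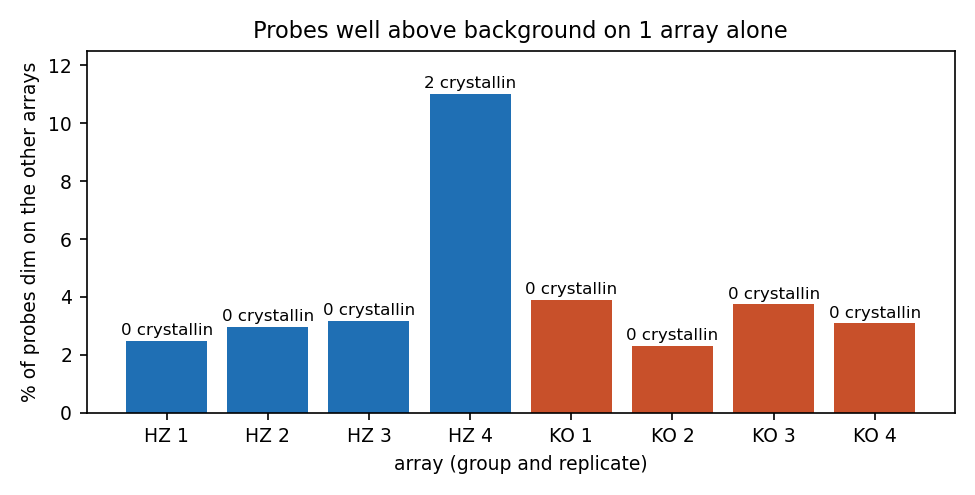
Share of probes, in percent, that were well above background on the named array among those not so on the other 7 arrays, with the number of crystallin probes above each bar. HZ replicate 4 stands at 11.0% with 2 crystallin probes, and the other arrays lie between 2.3 and 3.9% with 0.

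In the lens, factors of the MAF family bind the promoters of crystallin genes, and the retina has its own member, Nrl, which specifies rods. The 250 bases before the start of 8 of the 9 genes were read from RefSeq sequence of GRCm38.p6, all but those of Cryab. Shown 5′ to 3′ are the promoters of the tested acidic members, Cryba1 and Cryba2, and of the members seen on HZ replicate 4 alone, Cryba4 and Crygs. Capitals mark the core of a MAF site, TGCTGA or its reverse complement TCAGCA.
Cryba1 (chr11:77725294-77725543, minus strand): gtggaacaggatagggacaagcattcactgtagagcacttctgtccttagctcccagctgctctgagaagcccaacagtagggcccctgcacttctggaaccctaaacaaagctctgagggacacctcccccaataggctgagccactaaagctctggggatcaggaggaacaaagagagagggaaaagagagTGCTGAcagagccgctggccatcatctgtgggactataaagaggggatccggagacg
Cryba2 (chr1:74893144-74893393, minus strand): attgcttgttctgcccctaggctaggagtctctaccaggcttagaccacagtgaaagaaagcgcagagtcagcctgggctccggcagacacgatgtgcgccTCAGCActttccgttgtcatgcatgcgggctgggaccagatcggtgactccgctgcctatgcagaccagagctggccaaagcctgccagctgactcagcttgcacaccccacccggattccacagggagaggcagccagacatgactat
Cryba4 (chr5:112252519-112252768, minus strand): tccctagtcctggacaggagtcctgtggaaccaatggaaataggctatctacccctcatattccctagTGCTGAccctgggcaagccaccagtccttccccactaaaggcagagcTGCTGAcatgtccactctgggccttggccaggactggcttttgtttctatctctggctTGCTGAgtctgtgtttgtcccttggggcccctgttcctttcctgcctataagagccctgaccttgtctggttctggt
Crygs (chr16:22811411-22811660, minus strand): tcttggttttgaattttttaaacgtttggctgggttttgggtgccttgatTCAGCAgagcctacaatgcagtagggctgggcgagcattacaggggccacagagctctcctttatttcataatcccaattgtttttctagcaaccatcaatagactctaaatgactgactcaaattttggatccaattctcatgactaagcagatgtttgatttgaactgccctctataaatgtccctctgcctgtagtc

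These 6 letters, searched on both strands, stood in 7 of the 8 crystallin promoters, Crybb2 being without them, and in 16.1% of 32851 promoters of the same length. They began 57 bases before the start of Cryba1, 149 before Cryba2 and 200 before Crygs, and Cryba4 held them 3 times, at 182, 135 and 77 bases. The core of a heat shock element, GAANNTTC, was in 0 of the 8 and in 6.69% of all promoters. TAATCC, the core bound by the photoreceptor factors CRX and OTX2, was in that of Crygs alone, 131 bases before its start, and in 6.25% of all promoters. Matches of the 3 motifs did not overlap in these promoters, and a match describes the sequence, not a site in use.

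Of the transcription factors known to act on crystallin genes, none passed the test. Of 14 listed, 10 were tested, 5 lower and 5 higher, with a median difference of 0.02 and 0 called. Nrl was between 6.94 and 7.30 on the arrays labelled HZ and between 7.03 and 7.28 in KO, and differed by -0.01 (standard error 0.10). The largest differences were those of Pax6 (-0.38, standard error 0.58), the regulator of eye development, Prox1 (-0.32, standard error 0.40), which drives lens fibre differentiation, and Sox2 (0.22, standard error 0.52), a factor of lens induction and neural progenitors. Mafa, a member of the MAF family, had a difference of -0.22 (standard error 0.18) and was lower in 4 of 4 same-numbered pairs. The list's median lay between -0.06 and 0.11 with any array left out. Hsf4, Pitx3, Foxe3 and Tfap2a were not tested, with 1 to 3 arrays well above background.

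Other crystallin genes and lens genes were examined in the same way. Of 10 other genes of the beta and gamma superfamily with a probe, 6 were tested, 5 of them lower, with a median difference of -0.34 and 0 called. Leaving out HZ replicate 4 moved that median to 0.04. The largest differences were those of Cryga (-0.79, limma adjusted p = 0.731), Crybg1 (-0.63, limma adjusted p = 0.769) and Crygc (-0.50, limma adjusted p = 0.825). In each of these 3 a single HZ array stood above the rest. Cryga was -1.59 on HZ replicate 3 and between -4.49 and -4.17 on the other 7 arrays. Crygc was -2.13 on HZ replicate 4 and between -5.39 and -4.47 elsewhere, and Crybg1 -3.22 on HZ replicate 4 and between -6.28 and -4.62 elsewhere. The gamma crystallins are close in sequence, and how far their probes share targets was not analysed here. Crygb and Cryge were not well above background on any array.

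Of 15 lens genes other than crystallins, 6 were tested, 4 of them lower, with a median difference of -0.15, which lay between -0.29 with KO replicate 1 left out and -0.07 with KO replicate 4 left out. Bfsp2, the gene of the beaded filament protein phakinin, was the only one of the 6 called lower at a fold over 1.5, as were 0.813% of all probes. It was -3.67, -3.24, -3.91 and -4.04 on HZ replicates 1 to 4 and -4.71, -4.23, -4.62 and -5.11 on KO replicates 1 to 4, with no overlap, as for 2.14% of all probes. The difference was -0.95 (95% interval -1.47 to -0.43, limma adjusted p = 0.394). The second Bfsp2 probe was not well above background on any array labelled KO. It reached the 4 arrays required for the test through the arrays labelled HZ alone, so it is no separate support. With its HZ mean of -5.03 the bound on the fold was 1.53, taking for each KO array the dimmest signal still well above background there or the probe's own if higher. This bound carries no interval. The measured KO mean was -6.16, and the bound was 1.29-fold when HZ replicate 4 was left out. Grifin, a lens galectin, had a difference of -0.49 (95% interval -0.96 to -0.03, limma adjusted p = 0.595), and Bfsp1, which encodes the filensin partner of phakinin, one of 0.37 (95% interval -0.27 to 1.02). The lens water channel gene Mip and Birc7 were not well above background on any array. Lim2, another listed gene, was not tested, since its brighter probe was well above background on 3 HZ arrays and 0 KO arrays. That probe lay between -5.39 and -3.89 on the arrays labelled HZ and between -6.03 and -5.85 on those labelled KO. Its bound, taken as for Bfsp2, was 2.17-fold, and 2.02-fold without HZ replicate 4. The HZ mean in it includes HZ replicate 2, where the probe was not well above background. The dimmer Lim2 probe overlapped between the groups, with means of -5.95 in HZ and -5.86 in KO. It was well above background on 1 HZ array and 2 KO arrays.

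Markers of RPE cells, which can make Cryab too, were lower on the arrays labelled KO. Of 17 tested RPE genes 16 were lower and 9 were called lower, Dct, Krt8, Mlana, Pmel, Rdh5, Rgr, Rpe65, Ttr and Tyr, with a median difference of -1.14. Over all probes tested, 49.5% were lower and 0.813% were called lower by the same rule. The mean level of the RPE list was 0.45, -0.59, 0.01 and 0.00 on HZ replicates 1 to 4 and -0.81, -1.28, -1.02 and -1.88 on KO replicates 1 to 4, without overlap. Among single probes, 2.14% were separated in this way, Cryab with them. Of 15 tested Muller glia genes 13 were lower and Car14 was called lower, with a median of -0.32, and the list level overlapped between the groups, from -0.75 to 0.19 and from -1.19 to -0.22. That median moved to -0.04 when HZ replicate 2 was left out, to -0.10 when KO replicate 4 was and to -0.63 when KO replicate 2 was. The RPE median stayed between -1.44 and -0.88 with any array left out. Rlbp1 stands in both the RPE and the Muller glia list, so the lists are not fully separate. The part of RPE or glial RNA in the Cryab difference was not tested.

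**Figure D4:**
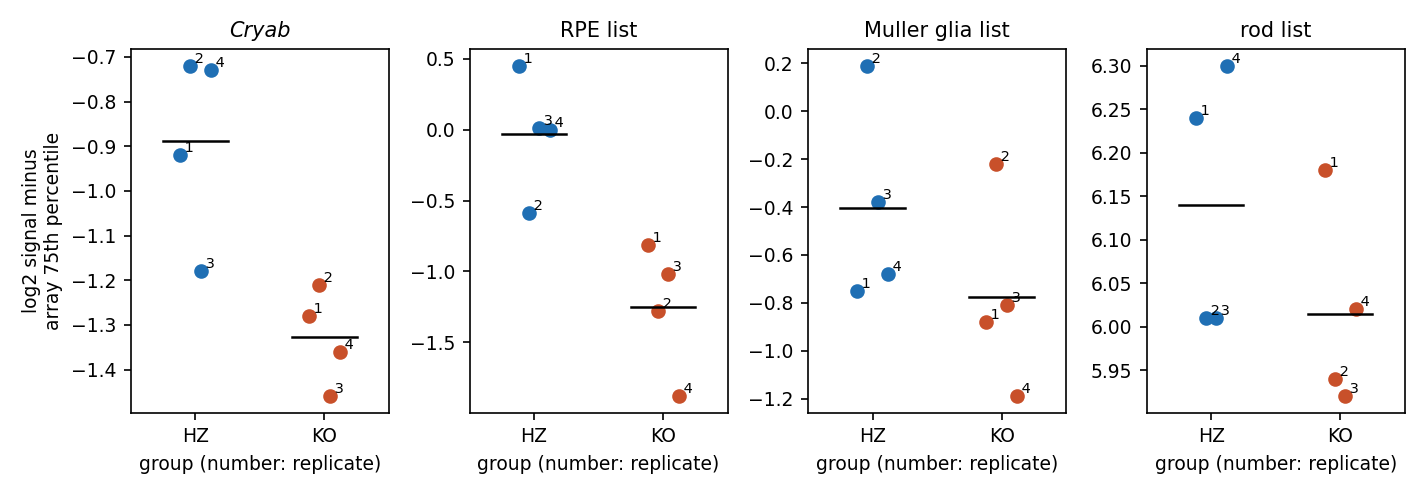
Normalized log2 signal of Cryab beside the mean level of the RPE, Muller glia and rod lists on each array, blue for HZ and orange for KO, with the replicate number at each point, lines at the group means and a separate vertical scale in each panel. Cryab and the RPE list do not overlap between the groups, and the Muller glia and rod lists do.

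The other lists of cells that a dissociated retina could hold gave the following medians. The cone median was 0.24 (10 tested), the ganglion cell median -0.18 (5), the amacrine and horizontal median 0.07 (7), the bipolar median -0.39 (11, with Grik1 called lower) and the rod median -0.13 (17). The astrocyte median was 0.37 (6, with Gfap called higher), the microglia median 0.78 (12, with Tmem119 called higher), the red blood cell median 1.61 (2) and the vascular median 0.27 (8). The list of ciliary, iris and corneal epithelium, tissues beside the lens, had a median of -0.35 (7, with Cdh3 called lower), and its level did not overlap between the groups, from -3.28 to -2.68 and from -3.87 to -3.39. Of single probes, 2.14% were separated with KO lower. The rule behind these calls, more than 1.5-fold with an adjusted p below 0.5, called 0.813% of all probes lower and 0.227% higher. Lists share some genes, among them Otx2 and Trpm1 in the bipolar and RPE lists. Leaving out 1 array turned the sign of 3 of these medians, the cone median to -0.01 and the amacrine and horizontal median to -0.08 without HZ replicate 1 and the ganglion cell median to 0.11 without HZ replicate 2. Other medians kept their sign but shrank, that of the bipolar list to -0.02 without HZ replicate 2, that of the astrocyte list to 0.12 without HZ replicate 1 and to 0.18 without KO replicate 2, and that of the ciliary list to -0.14 without KO replicate 1, against -0.61 without KO replicate 2. The ciliary median was -0.10 with normexp background correction and -0.68 with the authors' values. Of its 7 tested genes, 3 were well above background on all 8 arrays. The vascular median rose to 0.53 without HZ replicate 2 and was -0.01 when probes had to be above background on every array to be tested. With any array left out, the microglia median stayed between 0.64 and 1.13, the red blood cell median between 1.15 and 2.12 and the rod median between -0.18 and -0.08. With normexp background correction the microglia median was 0.53 and the red blood cell median 0.93. The part of these cells in the crystallin differences was not tested.

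Whether crystallins varied together from array to array was examined for the 36 pairs of members. Pearson's r was positive for 30 pairs, with a median of 0.36 and a range from -0.58 to 0.86. By an exact two-sided permutation test over the 8 arrays, 3 pairs had an unadjusted p under 0.05 and 0 pairs an adjusted one, the smallest being 0.254. Without HZ replicate 4 the median was 0.02 and 19 pairs were positive. With all arrays kept, the median was -0.03 after quantile normalization. Arrays share their scaling and dim probes share their background, which also enter such values.

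Cryab and Cryba1, both well above background throughout, had r of 0.81 (exact permutation p = 0.0269, adjusted p = 0.322) and Spearman's rho of 0.60 (exact permutation p = 0.132, adjusted p = 0.605). The value was 0.80 after the group means were removed, 0.74 without the 2 arrays farthest from the Cryab median and 0.76 without HZ replicate 4. Cryba2 and Crybb2 had r of 0.78 (exact permutation p = 0.00707, adjusted p = 0.254) and rho of 0.83 (exact permutation p = 0.0154, adjusted p = 0.277), 0.90 without the 2 farthest arrays and 0.82 without HZ replicate 4. The Crybb2 probe was well above background on only 2 of the 8 arrays, so most of its values lay near background. Both values stayed positive without HZ replicate 4, and neither passed the adjustment. The third pair, Cryba4 and Crybb2, had r of 0.85 (exact permutation p = 0.0195, adjusted p = 0.322) and rho of 0.57 (exact permutation p = 0.151, adjusted p = 0.605), and r of 0.67 without the 2 farthest arrays and 0.43 without HZ replicate 4. The highest r, 0.86 for Cryba4 and Crygs (exact permutation p = 0.0909, adjusted p = 0.546, rho of 0.31), became -0.29 without it.

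**Figure D5:**
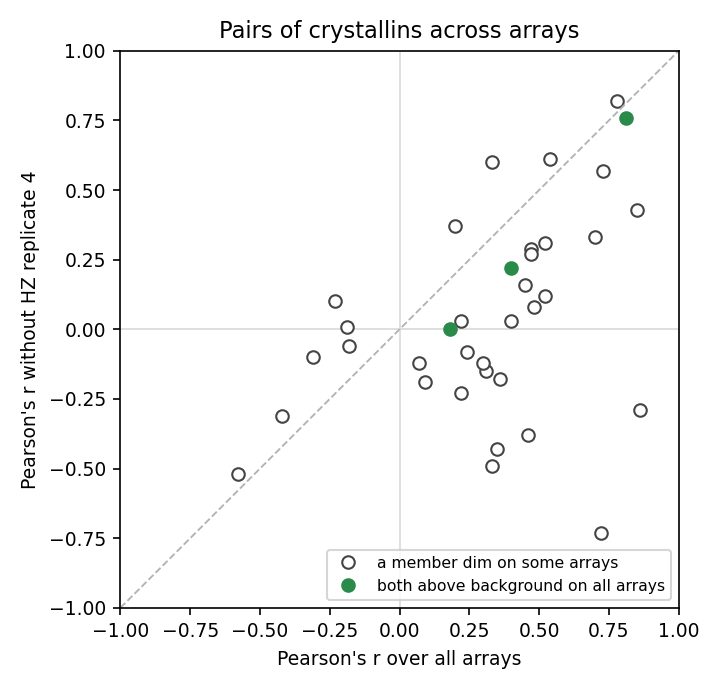
Pearson's r of each of the 36 pairs of crystallins over all 8 arrays on the horizontal axis and without HZ replicate 4 on the vertical axis, with the dashed line where both are equal. Most pairs lie below the line, and the median moves from 0.36 to 0.02.

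In the genome, Cryba4 lies next to Crybb1 and Crybb2 next to Crybb3 on chromosome 5, per the RefSeq annotation. These neighbours did not stand out among the pairs. Cryba4 and Crybb1 had r of 0.40 (exact permutation p = 0.310, adjusted p = 0.602) and 0.03 without HZ replicate 4. Crybb2 and Crybb3 had r of 0.33 (exact permutation p = 0.410, adjusted p = 0.701) and -0.49 without it.

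As a description, 14761 tested genes were ranked by the correlation, over the 8 arrays, of their deviations from the group means with the mean deviation of the 6 tested crystallins. That mean was -0.19, 0.19, -0.37 and 0.37 on HZ replicates 1 to 4 and -0.23, 0.18, -0.01 and 0.06 on KO replicates 1 to 4. The 10 genes with the highest r, from 0.967 to 0.949, were Arhgef6, Col14a1, AI661453, 1700057H21Rik, Tmem104, Kcnk15, Trim16, Cacna1c, Slc22a4 and Olfr310. For 8 of them the largest deviation was on HZ replicate 4, for the other 2 on HZ replicate 3, and 3 were well above background on all 8 arrays. The lowest r were those of Polr3gl (-0.972), Slc28a1 (-0.970) and Gm14151 (-0.934). With so many genes and few arrays, values of this size are found at both ends.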

How the data were processed

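Gene expression was measured in photoreceptor cells at P8 on 8 arrays, 4 labelled Lpcat1 HZ and 4 labelled Lpcat1 KO. Cy3-labelled cRNA was hybridized, and the authors deposited the scanner output of Agilent Feature Extraction 10.7.1.1 (version from the submitters' processing notes), in which each spot has a background-subtracted signal intensity. A table of log2 values, shifted to the 75 percentile by the authors, was used as an alternative.

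From the intensities, log2 values were computed relative to the 75th percentile of the 59305 non-control spots of an array. Spots the software marked as outliers were dropped, and repeated spots were averaged to 56605 probes. Probes were named through their RefSeq accession, which matched for 32989. Tests were limited to probes well above background on 4 or more arrays with 3 or more values per group. KO was compared with HZ by limma 3.58.1 (lmFit and eBayes, two-sided, unpaired) in R 4.3.3, and p-values were adjusted by Benjamini-Hochberg over these probes. Each gene was represented by its brightest probe on average. Correlations used exact permutations in Python 3.11.15 with numpy 2.4.6, and plots matplotlib 3.10.9.

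Named are the crystallins, Lpcat1, Nt5e, the called members of 18 other gene lists, the 3 largest differences of the relatives, small heat shock protein, transcription factor and lens lists, and the genes most and least like the crystallins. Mafa, Cryz, Crym, Lgsn, Lim2, Hsf1, Hsf2, Hsp90aa1, Hspa8, Nrl and the genes named only as not tested or not above background were chosen after their values were seen. The members and lists were chosen with earlier results of these data known. Same-numbered arrays, which share a slide column, deviated together (r of 0.172 to 0.337 in 4 of 4 pairs, over a minimum of 0.1, against -0.337 to 0.117 for different numbers), so the numbers pair the arrays. The alternatives were normexp background correction with an offset of 50, quantile normalization, another set of probes for the percentile (those well above background throughout), that set or no filter for the test, the methods' t-test, eBayes with trend and robust options, the replicate block, the authors' values, the mean of a gene's probes, and each array left out.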

Additional observations from a re-analysis of the deposited data

Results flagged for a closer look

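Within the groups of 4 arrays, 86 sets of values were examined, those of the 11 crystallin probes, of the probes of other crystallin genes and of the list levels. In 8 of them a single array lay far from the other 3 by Dixon's test, where chance gives about 1 in 20 or 4.3. HZ replicate 4 was the array in 4 of the 8.

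Among the members, Crygs was -3.19 on HZ replicate 4 against -7.95 to -7.57 in the rest of HZ, and Cryba4 -4.51 against -7.52 to -7.10. Both were well above background on that array and on 0 of the other 3. Cryba1 was -4.37 on KO replicate 2 against -5.03 to -5.02 in the rest of KO, all 4 of them well above background.

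Among the relatives, Cryga was -1.59 on HZ replicate 3 against -4.39 to -4.17 in the rest of HZ, all well above background. A second Crygc probe was -5.08 on HZ replicate 4 against -6.66 to -6.51, Cryge was -7.39 on HZ replicate 4 against -8.01 to -7.98, and a probe of Crygb was -6.71 on KO replicate 3 against -7.75 to -7.59. These last 3 were not well above background on any of the 4 arrays. The vascular list level was -3.20 on KO replicate 1 against -2.65 to -2.58 on the others labelled KO.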

How the results depend on the processing

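At a fold over 1.5 with an adjusted p under 0.5, and at a fold over 1.2 with an adjusted p under 0.05, the number of crystallin probes called stayed at 0 under all 18 alternatives. At a fold over 1.2 with an adjusted p under 0.5, the pairing added later, 1 was lower, but 0 with no filter on dim probes, 2 with the replicate block, and 0 to 1 with an array left out. The block changed no other call of a crystallin. The median difference of -0.36 kept its sign, between -0.47 and -0.12, the smallest with normexp background correction, and between -0.47 and -0.17 with an array left out. Cryaa turned sign with quantile normalization (0.09) and without HZ replicate 2 (0.01), and the other tested members kept theirs. Cryab lay between -0.54 and -0.34, with an unadjusted p under 0.05 in 17 of 17 alternatives with that probe and an adjusted p of 0.312 to 0.872. The median r of the pairs turned to -0.03 with quantile normalization, was 0.23 with the replicate block, and lay between 0.02 and 0.48 with an array left out, the lowest without HZ replicate 4. The causes were not tested. Dim probes limit 6 of the 9 members, which were not well above background on all arrays.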

Other observations

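Several enzymes serve as lens crystallins in some vertebrates or are related to them by name, and none of these passed the test. Of 5 such genes 4 were tested, with a median difference of -0.02 and 0 called. That median lay between -0.10 and 0.12 with any array left out. Cryz, a quinone reductase, was between 1.12 and 1.69 on the arrays labelled HZ and between 1.22 and 1.60 on those labelled KO. Crym, a thyroid hormone binding protein, was 0.94, 3.31, 1.81 and 0.80 on HZ replicates 1 to 4 and 1.31, 2.53, 1.29 and 0.58 on KO replicates 1 to 4, with replicate 2 the highest in both groups. Lgsn, a lens relative of glutamine synthetase, was not well above background on any array.

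The heat shock factors and larger chaperones, which work beside the alpha crystallins, lay on both sides of 0. Of 10 tested, 5 were lower and 5 higher, with a median difference of 0.00, a range from -0.32 to 0.22 and 0 called. The lowest value was that of the brightest Hspa8 probe, whose other 3 probes gave 0.18, 0.13 and 0.24. The median stayed between -0.06 and 0.06 with any array left out. Hsf1, the main heat shock factor, had a difference of 0.04 (standard error 0.11) and Hsf2 one of 0.02 (standard error 0.08). Hsp90aa1 had one of -0.20 (standard error 0.07, limma adjusted p = 0.566) with no overlap between the groups, as for 2.14% of all probes, while its second probe gave 0.10.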
